A study of Mus musculus with 20 samples.

Results

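The comparison of KO with WT plantaris tendon at day 7 asks how a tendon under a growth stimulus differs when Igf1r, the gene of the IGF1 receptor, is targeted in tenocytes, the fibroblasts that build tendon. It rests on 8 of the 20 libraries of the series, 4 of KO day 7 and 4 of WT day 7, chosen by their labels. KO day 7 mice were ScxCreERT2+/+ IGF1Rflox/flox, with tamoxifen and 7 days of the growth stimulus. WT day 7 mice were ScxCreERT2-/- IGF1Rflox/flox, likewise with tamoxifen and 7 days of the stimulus. The KO and WT day 14 groups, with the same genotypes, tamoxifen and 14 days of the stimulus, are set beside them, and WT day 0, without tamoxifen or stimulus, enters only the estimate of spread. Every group carried the flox alleles, so the genotypes differ in the recombinase and in what it removes. KO mice had the recombinase on both alleles of Scx, and no mice with the recombinase but without flox alleles, nor KO mice without the stimulus, are analysed here. Only cells that express Scx can recombine, so other cells of the tendon keep Igf1r. Whether each library stands for its own mouse is not stated in the labels, so p-values cover only the scatter among these libraries, part of which may be technical.

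IGF1 and IGF2 are secreted growth factors that bind the receptor encoded by Igf1r, a tyrosine kinase of the insulin receptor family. The receptor signals through insulin receptor substrates to PI3 kinase, AKT and mTORC1, which promote protein synthesis, growth and division and hold the FoxO transcription factors out of the nucleus. Scleraxis, encoded by Scx, is a helix-loop-helix transcription factor of tenocytes and their progenitors, and CreERT2 is a recombinase that enters the nucleus only when tamoxifen binds it. Loaded tendon grows by making new matrix, mostly type I collagen, in and around its sheath, the paratenon.

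Library depth was 63.5, 39.8, 54.3 and 60.7 M counts in KO day 7 replicates 1 to 4, and 59.5, 52.6, 50.5 and 48.3 M counts in WT day 7 replicates 1 to 4. The first principal component of the 8 libraries held 43.9% of the variance and separated KO from WT, and the second held 17.1% and set KO replicate 2 apart. Skeletal muscle fibre genes made up 0.877, 0.695, 1.15 and 1.66% of the counts in KO libraries, against 0.309, 0.196, 0.0485 and 0.263% in WT libraries. All 4 KO libraries held more than all 4 WT libraries, so muscle content and genotype cannot be told apart at day 7. Keratinocyte genes made up 0.0819% of the counts in KO replicate 2 and at most 0.00197% in any other day 7 library. Counts of called genes are therefore given also with a muscle score, the mean log2 CPM of the muscle fibre genes in each library, as a covariate, and without KO replicate 2.

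Igf1r (ENSMUSG00000005533, chromosome 7, 67952827 to 68233668, plus strand, GRCm38) had 55.02, 49.3, 48.99 and 52.02 CPM (counts scaled to a common library size, after TMM scaling) in KO libraries, against 46.05, 50.5, 49.3 and 50.8 CPM in WT libraries. The groups overlapped, and the difference was 0.063 ± 0.081 on the log2 scale (here and throughout, log2 differences are KO minus WT and ± gives the SE; 95% interval -0.107 to 0.233; two-sided exact permutation p = 0.314, n = 4 each). A count over the whole gene takes in reads from cells that cannot recombine and from exons outside the flox sites, and so tests neither the labels nor the deletion. Its relative Insr, the insulin receptor gene, named after its values were seen, had 50.4, 49.5, 49.2 and 52.9 CPM in KO and 53.2, 47.6, 52.005 and 49.8 CPM in WT libraries, again with overlap. At day 14 Igf1r stood 0.23 ± 0.082 higher in KO and was not called (edgeR adjusted p = 0.162). The same exact permutation test gave p = 0.0286 at day 14, the smallest that 4 against 4 allow. So all 4 KO libraries lay above all 4 WT libraries at that day.

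Scx (ENSMUSG00000034161, chromosome 15, 76457452 to 76459458, plus strand), the gene that carries the recombinase in KO mice, had 593, 1153, 557 and 639 CPM in KO libraries, against 57.1, 52.8, 44.8 and 47.2 CPM in WT libraries. The groups did not overlap, and KO replicate 2 stood highest. Scx was 14.6-fold higher in KO, a log2 difference of 3.87 ± 0.30 (SE; two-sided exact permutation p = 0.0286, the smallest that 4 against 4 allow). Bop1 (ENSMUSG00000022557, chromosome 15, 76452989 to 76477277, minus strand), needed to build the large ribosomal subunit, whose span encloses Scx on the opposite strand, had 224, 345, 209 and 264 CPM in KO and 64.04, 86.3, 70.02 and 78.2 CPM in WT libraries. It was 3.49-fold higher, with no overlap and the same replicate highest (exact permutation p = 0.0286). Strand use in counting is not given, so reads of the enclosed gene and of its host cannot be told apart.

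Most genes around Scx showed no such rise. Of 50 other tested genes that start within 500 kb, 6 were called higher and 1 lower, where called means an adjusted p below 0.05 in edgeR's quasi-likelihood test over all genes. Over all genes tested 9.39% were called higher and 5.42% lower. Without Bop1, log2 differences in the window ran from -1.02 to 1.02 with a median of 0.174. Plec, of the plectin cytolinker, was 0.80 ± 0.15 higher, and Nrbp2, Cyhr1 and Lrrc14 were 0.33, 0.31 and 0.30 higher. The predicted gene C030006K11Rik was 0.63 higher and the zinc transporter gene Slc39a4 was lower, at -1.02. Bop1 was the member of this set that was also called at day 14.

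**Figure D1:**
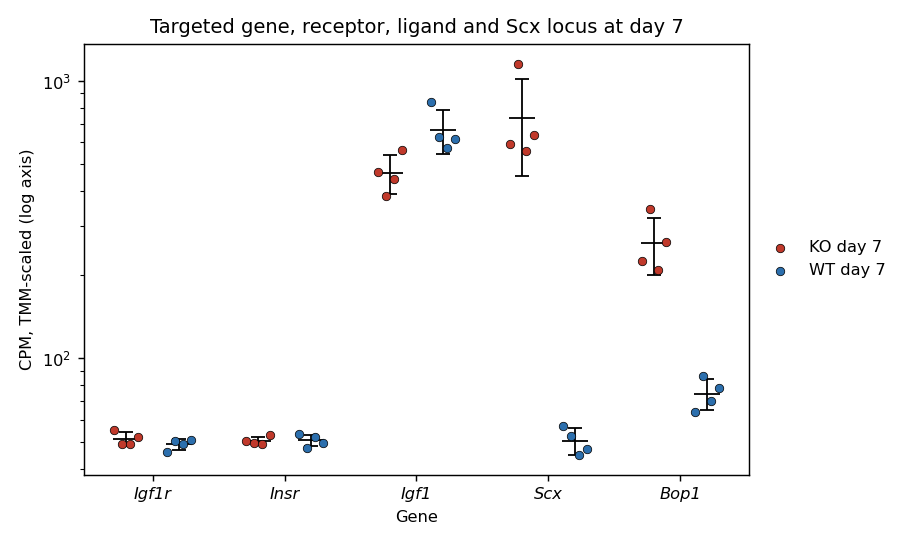
Level of Igf1r, Insr, Igf1, Scx and Bop1 in each day 7 library, in TMM-scaled CPM on a log axis. Red points are the 4 KO libraries, left of the 4 WT libraries in blue, with the mean and SD as black bars. Igf1r and Insr overlap between the groups, Igf1 lies lower in KO, and Scx and Bop1 lie higher in KO with no overlap.

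In all, 2802 of 18918 genes tested differed between KO and WT at day 7, which is 14.8%. In KO, 1777 (9.39%) were higher and 1025 (5.42%) lower, the shares to set beside the list counts that follow. At least 2-fold differences were found in 705, or 3.73% of genes tested, of which 562 were higher and 143 lower. The 4 KO and 4 WT libraries did not overlap in 4611 genes, or 24.4% of those tested, which include 2434 of the called genes. The median log2 difference over all genes was -0.013. With the muscle score in the model 1001 genes were called, of which 768 were higher and 233 lower, and 863 of them were among the 2802. Without KO replicate 4 the count was 1504 and without WT replicate 2 it was 1440, and without KO replicate 2 it was 1965. The authors' deposited table of edgeR results holds 13266 genes, of which 2878 were called at day 7, and 2466 calls were shared in the same direction.

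Collagen genes rose in KO. Of 11 tested fibrillar collagen genes 9 were higher and none lower, with a median log2 difference of 0.83 against -0.013 for all genes. Col1a1, the gene of the alpha-1 chain of type I collagen, the main protein of tendon, had 37105, 37050.5, 39181 and 46275 CPM in KO libraries, against 17348, 17362, 22448 and 20939 CPM in WT libraries. All 4 KO libraries lay above all 4 WT libraries. Col1a1 rose by 1.03 ± 0.25 and its partner chain Col1a2 by 0.83 ± 0.19 on the log2 scale (SE; edgeR adjusted p = 0.0107 and 0.00724). Col5a1, of type V collagen, which controls fibril diameter, had 6403, 5999.9, 5667 and 6621 CPM in KO libraries and 2707, 3065, 3327 and 3563 CPM in WT libraries. It rose by 0.96 ± 0.18 (edgeR adjusted p = 0.00203), and Col24a1 rose by 0.87 ± 0.20. The fibrillar genes together took 13.2 to 15.1% of all counts in KO libraries, against 9.0 to 10.2% in WT libraries.

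The tested fibril-associated, beaded and short-chain collagen genes numbered 16, of which 7 rose and none fell (median 0.84). Col6a2, of the beaded filaments around cells, had 3721, 4389, 3873 and 4552 CPM in KO libraries and 1835, 1905, 2027 and 2266 CPM in WT libraries. There was no overlap, and Col6a2 rose by 1.04 ± 0.17, beside Col6a1 with 0.88 and Col16a1 with 0.76 (edgeR adjusted p = 0.000763, 0.000813 and 0.00308). Of 20 basement membrane genes 9 rose and none fell. Among them Col15a1, of a collagen beneath basement membranes of muscle and vessels, rose by 1.25 ± 0.22, Hspg2, of perlecan, by 0.93 ± 0.19, and the type IV collagen gene Col4a2 by 0.83 ± 0.19.

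Part of these calls were lost with the muscle score, under which 3 of the 11 fibrillar genes were called higher, at a median of 0.75, with 4 of the 16 fibril-associated and 3 of the 20 basement membrane genes. Col1a1 and Col1a2 lost their calls there, while Col5a1, Col6a1, Col6a2 and Col16a1 kept theirs in every alternative. Without KO replicate 2 the counts were 7, 6 and 7, and without WT replicate 2 the fibril-associated and basement membrane counts were 3 and 4. Without KO replicate 4 the fibril-associated count was 4.

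Proteoglycans and glycoproteins of the tendon matrix were also among the genes that rose. Of 18 small leucine-rich and large proteoglycans 6 rose and none fell, and of 31 matrix glycoprotein and elastic fibre genes 8 rose and none fell. Fmod, of fibromodulin, a proteoglycan that regulates collagen fibril assembly, had 2782, 2932, 2777 and 3328 CPM in KO libraries, against 1227, 1411, 1541 and 1694 CPM in WT libraries. Its groups did not overlap and it rose by 1.01 ± 0.17 (edgeR adjusted p = 0.00111). Prelp, which links collagen to basement membrane, rose by 1.24 ± 0.20, and the proteoglycan genes Bgn and Lum by 0.48 ± 0.12 and 0.52 ± 0.14. Comp, of a pentameric glycoprotein that binds collagen, had 1707, 2629, 2631 and 2624 CPM in KO libraries, against 710.4, 864, 1226 and 1186 CPM in WT libraries. KO replicate 1 was the lowest of the KO libraries and still above every WT library, and Comp rose by 1.27 ± 0.21. Tnn, of tenascin-W, rose by 1.70 ± 0.34, Cilp2 by 1.79 ± 0.34, Thbs3 by 0.62 ± 0.12, Matn2 by 0.60 ± 0.12 and Fn1, of fibronectin, by 0.64 ± 0.15. With the muscle score 5 of the 18 and 7 of the 31 were called.

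Enzymes that process the matrix moved less uniformly. Of 30 collagen-modifying enzymes and chaperones 8 rose and 1 fell, with a median of 0.18, though without WT replicate 2 the risen genes numbered 2 and without KO replicate 4 or WT replicate 1 they numbered 3. The gene that fell was Lox, of lysyl oxidase, which starts collagen crosslinking. Lox had 1935, 2193, 1827 and 1777 CPM in KO libraries and 2103, 2808, 2942 and 3495 CPM in WT libraries, with overlap between KO replicate 2 and WT replicate 1. It fell by 0.55 on the log2 scale (edgeR adjusted p = 0.0216). The Lox call was lost in 6 of the alternatives, among them the muscle score. P3h4, of the complex that modifies collagen lysines, rose by 0.46 ± 0.11, and Bmp1, which cleaves the procollagen tail, by 0.38 ± 0.095. Of 25 metalloproteinase, ADAMTS and inhibitor genes 5 rose and 1 fell. Timp2, of a metalloproteinase inhibitor that also takes part in activating proMMP2, had 2375, 2242, 2484 and 2442 CPM in KO libraries and 1170.0, 1169, 1353 and 1504 CPM in WT libraries. It rose by 0.88 ± 0.12 with no overlap, beside Mmp14 with 0.59 ± 0.12 and Mmp2 with 0.59 ± 0.14. Of 9 hyaluronan genes Has2, of a hyaluronan synthase, fell, by 0.96. Its call was lost in 10 of the alternatives, among them the muscle score and leaving out KO replicate 2.

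**Figure D2:**
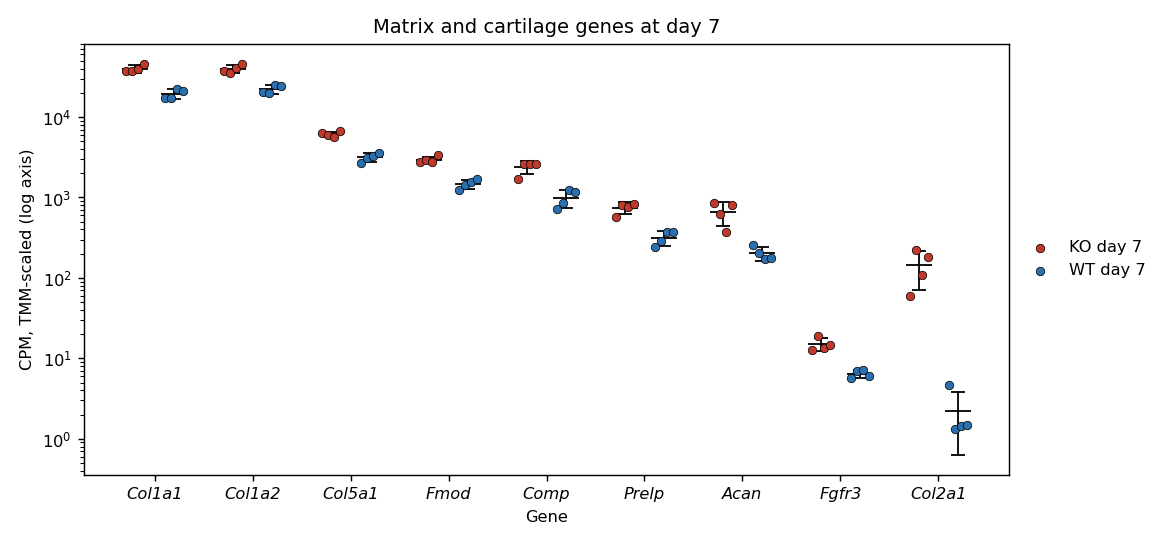
Level of 9 matrix and cartilage genes in each day 7 library, in TMM-scaled CPM on a log axis. Red points are the 4 KO libraries, left of the 4 WT libraries in blue, with mean and SD as black bars. In each of these genes the 4 KO libraries lie above the 4 WT libraries, and Col2a1 has the widest gap.

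Cartilage genes were among those that rose. Of 21 tested, 11 rose and none fell, with a median log2 difference of 1.56. Col2a1, of type II collagen, the fibrillar collagen of cartilage, had 59.4, 223, 108 and 183 CPM in KO libraries, against 4.62, 1.34, 1.45 and 1.48 CPM in WT libraries. The groups were far apart, with WT replicate 1 above the other WT libraries, and Col2a1 rose by 5.99 ± 1.03 (SE; edgeR adjusted p = 0.00173). Acan, of aggrecan, the large proteoglycan that binds water in cartilage, had 847, 624, 373 and 818 CPM in KO libraries and 259, 206, 172 and 177 CPM in WT libraries. Its groups did not overlap and it rose by 1.71 ± 0.37. Fgfr3, of a growth factor receptor of chondrocytes, had 12.8, 18.8, 13.5 and 14.8 CPM in KO libraries and 5.61, 6.93, 7.25 and 6.01 CPM in WT libraries, and rose by 1.22 ± 0.14 (edgeR adjusted p = 3.26e-05). Scrg1 rose by 2.14 ± 0.56 and Sox5, of a chondrocyte transcription factor, by 0.79 ± 0.17. Sox9, the leading cartilage transcription factor, named after its values were seen, rose by 0.93 ± 0.30 (edgeR adjusted p = 0.0478).

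With the muscle score 4 cartilage genes were called, at a median of 1.09, and 7 without KO replicate 2, at 1.53. Without KO replicate 4 the count was 7, without WT replicate 2 or 3 it was 5, and without WT replicate 4 it was 6. Bone genes gave 3 higher and 1 lower of 14 tested. Ibsp, of bone sialoprotein, had 18.3, 102, 86.2 and 47.7 CPM in KO libraries and 4.23, 2.74, 3.43 and 5.703 CPM in WT libraries, with no overlap, and rose by 3.98 ± 0.84. Ank, of a pyrophosphate exporter, rose by 0.66 ± 0.12. Mgp, of matrix Gla protein, an inhibitor of calcification, had 180.5, 152, 165 and 176 CPM in KO libraries and 311, 293, 263 and 308 CPM in WT libraries, and fell by 0.80 (edgeR adjusted p = 0.00385, lost with the muscle score).

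Of 16 tendon transcription factors and markers 6 rose and none fell, with a median of 0.43, against a background of 9.39% higher. They were Scx, Fmod, Comp, Cilp2, Tppp3 and Chodl, and the first 4 kept their calls in every alternative. Tppp3, a marker of sheath cells, had 57.97, 121, 69.97 and 80.6 CPM in KO libraries and 47.01, 45.96, 38.3 and 45.95 CPM in WT libraries. The groups did not overlap, KO replicate 2 was highest, and the call was lost without that library. Tnmd, the membrane protein of mature tenocytes that is a known target of scleraxis, and Mkx, a homeobox factor of tendon, are named after their values were seen. Both were present in all 8 libraries. Tnmd had 235, 177, 240.3 and 249 CPM in KO libraries and 370.0, 154, 152 and 179.7 CPM in WT libraries, with overlap and a log2 difference of 0.076 ± 0.27. Mkx had 25.1, 22.7, 25.8 and 29.7 CPM in KO libraries and 30.001, 21.8, 22.6 and 25.9 CPM in WT libraries, a difference of 0.041 ± 0.13. The 22 tested genes of paratenon and progenitor fibroblasts gave 8 higher and none lower, 7 with the muscle score and 5 without KO replicate 3 or WT replicate 2. Clec3b, of tetranectin, had 115, 189.8, 279 and 212 CPM in KO libraries and 67.4, 49.5, 72.3 and 82.7 CPM in WT libraries, with no overlap, and rose by 1.55 ± 0.29. Cd55, of a complement regulator, rose by 0.67 ± 0.12 and Cd248, of endosialin, by 0.87 ± 0.19. In bulk tissue, a change in the number of cells of a type and a change in RNA per cell cannot be told apart.

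Among 6 tested IGF ligand and receptor genes the ligand genes Igf1 and Igf2 went opposite ways and no receptor was called. Igf1 had 468, 385, 443 and 562 CPM in KO libraries, against 842, 628, 573 and 616 CPM in WT libraries. The groups did not overlap, though KO replicate 4 lay just under WT replicate 3, and Igf1 fell by 0.52 on the log2 scale (edgeR adjusted p = 0.0389). Igf2 had 5.397, 3.25, 10.9 and 16.4 CPM in KO libraries and 4.08, 1.86, 1.86 and 3.04 CPM in WT libraries, with overlap, and rose by 1.73 ± 0.48. The Igf1 call was lost in 7 alternatives, with the muscle score and without KO replicate 1, 2 or 3 or WT replicate 1, 2 or 4. The Igf2 call was lost in 6, with the muscle score, with only the groups compared, and without KO replicate 3 or 4 or WT replicate 2 or 3.

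Of 17 receptor substrate and adaptor genes 1 rose and 3 fell, beside a background of 14.8% called. Pik3r2, of a regulatory subunit of PI3 kinase, had 85.1, 88.04, 93.1 and 98.3 CPM in KO libraries and 51.03, 52.8, 62.5 and 61.6 CPM in WT libraries, and rose by 0.68 ± 0.13 with no overlap and in every alternative. Grb10, of an adaptor that restrains the insulin and IGF1 receptors, fell by 0.36. Pik3cb, of a catalytic subunit of PI3 kinase, fell by 0.48, and both calls were lost with the muscle score and without KO replicate 2. The Grb10 call was lost in 5 of the alternatives in all and the Pik3cb call in 6. Of 12 binding proteins and their proteases 3 rose. Igfbp6, of a binding protein that prefers IGF2, had 244, 376, 422 and 358 CPM in KO libraries and 161, 147, 193 and 214 CPM in WT libraries, and rose by 0.97 ± 0.20 (edgeR adjusted p = 0.00475, kept in every alternative). Htra1, of a protease that cleaves binding proteins, rose by 0.49 ± 0.13, and Stc2, of a stanniocalcin that inhibits such a protease, by 0.51 ± 0.17. The Stc2 call was lost in 9 of the alternatives and the Htra1 call in 2.

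Of 20 FoxO factors and FoxO-responsive genes 2 rose, Foxo4 by 0.49 ± 0.13 and Foxo6 by 1.26 ± 0.28, and Rictor, of mTORC2, fell by 0.35. These counts are close to the 9.39% and 5.42% of all genes called higher and lower, and none was called with the muscle score. Of 19 mTORC1 genes 4 rose and none fell. Sesn2, of a leucine sensor that restrains mTORC1, had 25.8, 26.5, 25.1 and 27.2 CPM in KO libraries, against 11.2, 11.4, 13.7 and 13.1 CPM in WT libraries. The libraries within each group lay close together, and Sesn2 rose by 1.09 ± 0.14 (edgeR adjusted p = 6.63e-05), in every alternative and again at day 14 (0.87 ± 0.14, edgeR adjusted p = 0.00145). Akt1s1, of the mTORC1 inhibitor PRAS40, rose by 0.39 ± 0.10, Rptor by 0.30 ± 0.092 and Rragd by 1.61 ± 0.52, each lost with the muscle score. The Rptor call was lost in 6 of the alternatives in all and the Rragd call in 11.

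Genes of TGF-beta and BMP signalling, which drive matrix production and tendon and cartilage fate, gave 11 higher and 1 lower of 36. Chrd, of the BMP antagonist chordin, had 42.7, 45.8, 47.7 and 55.7 CPM in KO libraries and 28.1, 23.5, 27.5 and 28.7 CPM in WT libraries, and rose by 0.83 ± 0.10 (edgeR adjusted p = 6.60e-05). Gdf5, of a BMP-family ligand of joints and tendon, rose by 1.23 ± 0.20, Tgfb2 by 0.63 ± 0.13, and Ltbp3 and Ltbp4, of latent TGF-beta binding proteins, by 0.72 ± 0.11 and 1.13 ± 0.20. None of these 5 overlapped between groups, and with the muscle score 10 of the 36 were called higher. Acvr2a, of an activin and myostatin receptor, had 37.9, 33.3, 37.9 and 40.4 CPM in KO libraries and 55.2, 62.5, 54.2 and 58.9 CPM in WT libraries. It fell by 0.63 with no overlap (edgeR adjusted p = 4.51e-05), and Mstn, of myostatin, rose by 2.18 ± 0.45, a call lost with the muscle score.

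Of 24 genes of Wnt ligands, antagonists and feedback, 8 rose and 3 fell, and with the muscle score 8 rose and 1 fell. Without WT replicate 1 the risen genes numbered 4, and without KO replicate 3 or 4 or WT replicate 2 or 3 they numbered 5. Lgr6, of a receptor for R-spondins, had 8.89, 11.998, 6.28 and 7.35 CPM in KO libraries, against 1.62, 1.34, 1.13 and 2.51 CPM in WT libraries, and rose by 2.39 ± 0.43 with no overlap. Wnt10b rose by 1.54 ± 0.29, Axin2, a common target of Wnt signalling, by 1.03 ± 0.21 and Dkk3 by 0.80 ± 0.17, while Rspo1, of an R-spondin, fell by 1.32. Of 24 fibroblast growth signal genes 5 rose and 1 fell. Pdgfb, of a platelet-derived growth factor, had 32.1, 40.6, 39.7 and 40.8 CPM in KO libraries and 21.9, 22.7, 19.002 and 18.7 CPM in WT libraries, and rose by 0.90 ± 0.13. Fgf18 rose by 1.12 ± 0.24, the receptor gene Pdgfrb by 0.53 ± 0.15, and Hgf, of hepatocyte growth factor, fell by 0.59.

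Of 31 DNA replication genes 7 fell and none rose, beside 5.42% of all genes called lower. The list's median log2 difference was -0.42, with 30 of 31 below 0. Pola1, of the DNA polymerase that primes replication, had 15.8, 14.01, 13.8 and 11.9 CPM in KO libraries and 20.2, 23.1, 20.05 and 16.6 CPM in WT libraries, and fell by 0.53 with no overlap (edgeR adjusted p = 0.0132). Mcm4, of the replicative helicase, fell by 0.42 and Tyms, of thymidylate synthase, by 0.55. Of 31 mitosis genes 2 fell, Cenpa by 0.51 and Mad2l1 by 0.51, a count close to that background, with a median of -0.51 over the list. No gene of either list was called with the muscle score, at medians of -0.49 and -0.50, and without KO replicate 2 the counts were 3 and 0. The replication count was 0 without KO replicate 4 or WT replicate 2, 1 without KO replicate 3, 2 without WT replicate 1 and 4 without WT replicate 3. With limma-voom it was 17, and 10 for the mitosis genes, and with only the groups compared in the fit the counts were 18 and 17. Cdkn1c, of the cell cycle inhibitor p57, was the called member of 15 D cyclin and inhibitor genes, beside 9.39% of all genes called higher. It rose by 0.69 ± 0.21 with overlap between the groups, and the call was lost in 7 of the alternatives, among them the muscle score.

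Of 66 cytosolic ribosomal protein genes 4 fell and none rose, close to the 5.42% of all genes called lower. Their median was -0.18, with 64 of 66 below 0. The count was 1 with the muscle score and 2 to 4 when single libraries were left out. Rps7 fell by 0.31 and Rpl11 by 0.34, calls that were lost with the muscle score and in 7 and 10 of the alternatives in all. Rpl3 had 12.1, 10.9, 11.5 and 10.3 CPM in KO libraries, against 56.8, 62.4, 57.9 and 58.7 CPM in WT libraries, and fell by 2.40. Rpl29 had 8.56, 7.53, 6.65 and 25.6 CPM in KO libraries and 48.1, 54.6, 51.5 and 50.9 CPM in WT libraries, with KO replicate 4 apart from the other KO libraries, and fell by 2.08. Both have many processed copies in the genome, so their counts are uncertain. Of 36 ribosome biogenesis genes 3 fell, the nucleolar genes Npm1, Ncl and Utp20 by 0.47, 0.34 and 0.55, and Bop1 rose. None of them was called lower with the muscle score.

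Of 40 genes of the endoplasmic reticulum and vesicle transport, through which collagen leaves the cell, 7 fell and 3 rose, while the collagen genes rose. Over all genes tested 9.39% were called higher and 5.42% lower. Hsp90b1 and Pdia6, of folding enzymes, fell by 0.39 and 0.36, and Kdelr1, of the receptor that returns chaperones, rose by 0.34 ± 0.080. The integrated stress response list gave 3 higher and 1 lower of 25, close to those shares. Among them the transcription factor gene Atf5 rose by 0.62 ± 0.13. Of 23 cholesterol synthesis genes 2 rose, again close to the share of all genes, among them Srebf2, of a transcription factor of the pathway, by 0.52 ± 0.13. Of 21 glycolysis genes 3 rose, Hk1 by 0.46 ± 0.12 and the muscle forms Eno3 and Pfkm by 2.21 ± 0.62 and 1.65 ± 0.53, and all 3 were lost with the muscle score. The Eno3 and Pfkm calls were lost in 6 and 10 of the alternatives in all. With the muscle score none of the 40 secretory genes was called lower, nor was any without KO replicate 3, KO replicate 4 or WT replicate 2, while upper-quartile scaling gave 11.

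**Figure D3:**
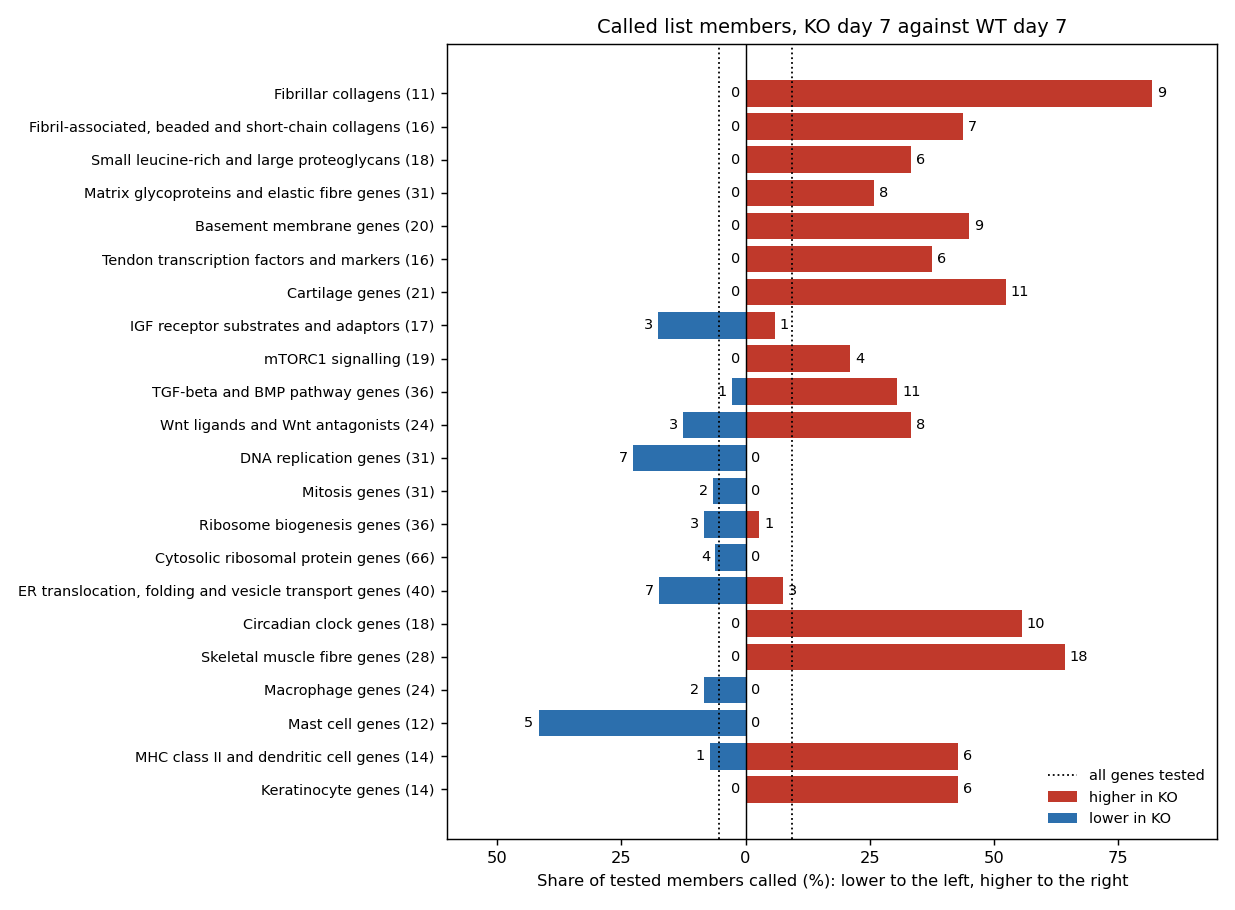
Share of tested members called higher (red, right) or lower (blue, left) in KO day 7 against WT day 7, for 22 gene lists. The number tested stands after each name and the number called beside each bar, and the dotted lines are the shares of all genes tested, 9.39% higher and 5.42% lower. Collagen, cartilage, clock and muscle fibre lists reach furthest to the right, and mast cell and DNA replication lists furthest to the left.

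Of 18 tested genes of the circadian clock 10 rose and none fell, beside 9.39% of all genes called higher. The median log2 difference of the list was 0.71, with 12 members above 0 and 6 below. The clock is a loop in which BMAL1, encoded by Arntl, and CLOCK bind E boxes and switch on Per, Cry, Nr1d and D-box factor genes, whose products feed back on it. A canonical E box of 6 bases, CACGTG, which is the same on both strands, stood in the promoters of 3 of the 8 risen clock genes that RefSeq promoter sequences cover, and in those of 2 clock genes that were not called, Cry1 and Per1, or 5 of the 15 covered in all. Over all 27025 genes covered, 8.09% had it in a promoter window, and over all 32851 windows 7.15%. The windows run from 250 bases before to 50 after the start site (GRCm38.p6), and the 3 genes are shown because their promoters hold the motif, which is in capitals. Ciart, of a clock repressor, has it at -116, -58 and -44, counted from the start site at 0 (chr3:95882179-95882478, minus strand). Bhlhe41, of the repressor DEC2, has it at -153 (chr6:145865371-145865670, minus strand). Tef, of a D-box factor, has it before both of its listed starts, at -127 of the first (chr15:81802423-81802722, plus strand) and at -138 of the second (chr15:81811164-81811463, plus strand), which is the window printed. A match of letters is a description and not evidence of binding.
Ciart: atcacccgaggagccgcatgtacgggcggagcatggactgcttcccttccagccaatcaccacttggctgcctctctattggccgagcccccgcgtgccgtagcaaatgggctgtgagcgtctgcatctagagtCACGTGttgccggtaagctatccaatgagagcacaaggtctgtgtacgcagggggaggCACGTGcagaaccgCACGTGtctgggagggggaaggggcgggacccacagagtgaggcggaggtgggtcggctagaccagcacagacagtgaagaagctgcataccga
Bhlhe41: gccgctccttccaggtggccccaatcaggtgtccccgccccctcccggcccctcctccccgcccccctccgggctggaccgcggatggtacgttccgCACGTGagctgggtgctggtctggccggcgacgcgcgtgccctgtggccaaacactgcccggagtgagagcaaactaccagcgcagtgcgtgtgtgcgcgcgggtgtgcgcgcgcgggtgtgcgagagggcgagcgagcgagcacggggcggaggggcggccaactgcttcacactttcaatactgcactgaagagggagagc
Tef: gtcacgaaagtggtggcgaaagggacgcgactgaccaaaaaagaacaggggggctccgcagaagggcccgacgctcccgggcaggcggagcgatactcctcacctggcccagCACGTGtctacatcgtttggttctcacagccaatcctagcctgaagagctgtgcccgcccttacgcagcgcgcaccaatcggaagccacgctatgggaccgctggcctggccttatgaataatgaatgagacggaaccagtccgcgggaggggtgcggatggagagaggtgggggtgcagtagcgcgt

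Ciart, chosen for its promoter, had 6.901, 3.08, 5.63 and 6.69 CPM in KO libraries, against 2.597, 1.97, 2.67 and 3.004 CPM in WT libraries. Bhlhe41 had 41.8, 33.4, 45.4 and 51.6 CPM in KO libraries and 21.1, 17.3, 20.8 and 21.8 CPM in WT libraries, and rose by 1.09 ± 0.17 (edgeR adjusted p = 0.000664). Tef, likewise chosen for its promoter, had 170.1, 100.1, 148 and 169.8 CPM in KO libraries and 91.04, 61.5, 80.3 and 75.1 CPM in WT libraries. In these 3 genes the groups did not overlap and KO replicate 2 was the lowest KO library. Nr1d1, of the repressor REV-ERB alpha, had 126, 141, 141 and 159 CPM in KO libraries and 43.1, 45.6, 66.8 and 72.1 CPM in WT libraries, and rose by 1.32 ± 0.19 at day 7 and by 1.36 ± 0.19 at day 14. Dbp, of a D-box factor with strong daily rhythm, had 67.1, 35.4, 59.97 and 72.5 CPM in KO libraries and 16.7, 10.05, 23.8 and 21.2 CPM in WT libraries, and rose by 1.71 ± 0.38. Hlf, of another D-box factor, rose by 1.60 ± 0.41 and Cry2 by 0.57 ± 0.13. Arntl, named after its values were seen, had 15.9, 43.6, 23.4 and 18.8 CPM in KO libraries and 39.99, 48.9, 34.9 and 46.5 CPM in WT libraries. It lay below the WT libraries in 3 of the 4 KO libraries and inside them in KO replicate 2, a difference of -0.75 ± 0.42 (edgeR adjusted p = 0.248). Without KO replicate 2 again 10 of the 18 were called higher, and with the muscle score 3. With the replicate block 10 were called higher and 1 lower. Without KO replicate 1, 3 or 4 or WT replicate 3 the count was 6, and without WT replicate 2 it was 5. The labels used here give no time of day for collection, and its part in these differences was not tested.

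**Figure D4:**
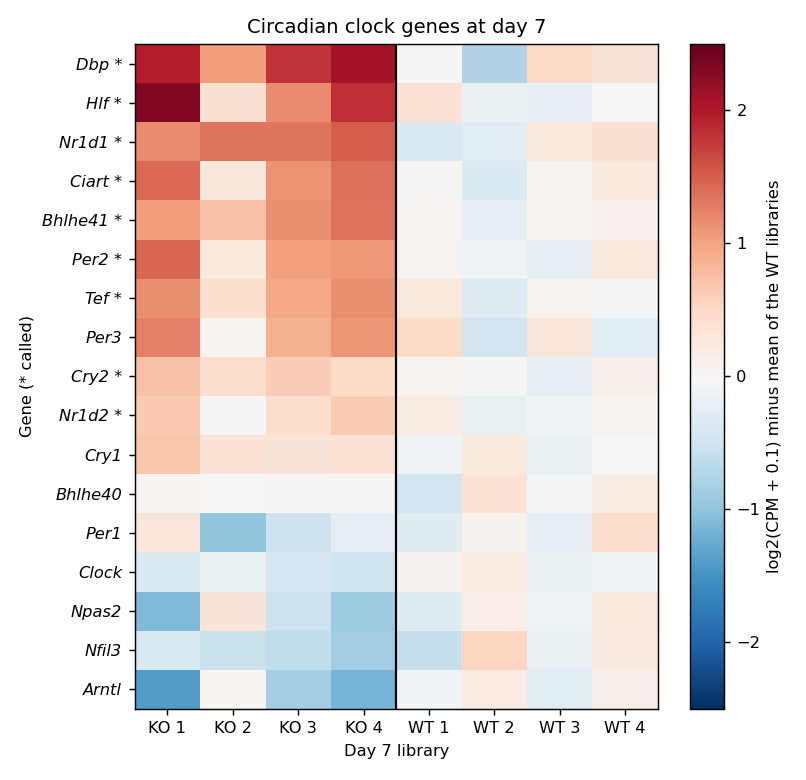
Levels of 17 of the tested circadian clock genes in the 8 day 7 libraries, KO left and WT right, as log2(CPM + 0.1) minus the mean of the 4 WT libraries. Red is higher and blue lower, and an asterisk marks a called gene. The 9 called genes shown are red in most KO libraries and, for most of them, palest in KO replicate 2, and Arntl is blue in KO replicates 1, 3 and 4.

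Genes of skeletal muscle fibres, a tissue next to this tendon, were the cell type list with the most members called higher. Of 28 tested, 18 were higher and none lower at a median of 2.68, beside 9.39% of all genes called higher. No overlap was seen in 23 of the 28, against 24.4% of all genes. Myh1, of a fast myosin heavy chain, had 1280.4, 1095, 1539 and 2253 CPM in KO libraries, against 168, 151, 13.8 and 286 CPM in WT libraries. WT replicate 3 was the lowest of all, and Myh1 rose by 3.32 ± 0.93 (edgeR adjusted p = 0.0262). Pvalb, of the calcium buffer of fast fibres, had 60.9, 47.4, 100.4 and 113 CPM in KO libraries and 6.75, 5.88, 1.803 and 7.36 CPM in WT libraries, and Myh2 had 412, 131, 150.3 and 299 CPM in KO libraries and 32.9, 10.2, 1.52 and 5.78 CPM in WT libraries. Des, of desmin, listed with pericyte and smooth muscle genes, had 562, 869, 1218 and 1653 CPM in KO libraries and 200.1, 221, 59.4 and 210.3 CPM in WT libraries. None of the 16 muscle precursor and regenerating fibre genes was called. They made up 0.0259, 0.032, 0.0793 and 0.149% of the counts in KO libraries and 0.0765, 0.0312, 0.0256 and 0.0489% in WT libraries, with overlap. Leaving out 1 library brought the number of fibre genes called to between 3 and 14, the lowest being 3 without KO replicate 4 and 4 without WT replicate 2.

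Mast cell genes were lower in KO, 5 of 12 tested with none higher and a median of -0.92. They made up 0.00723 to 0.0139% of the counts in KO libraries, against 0.0145 to 0.019% in WT libraries. Cpa3, of the granule protease carboxypeptidase A3, had 3.09, 4.99, 12.6 and 4.103 CPM in KO libraries and 8.67, 19.97, 21.7 and 17.7 CPM in WT libraries. The groups overlapped, with KO replicate 3 highest in KO and WT replicate 1 lowest in WT, and Cpa3 fell by 1.46 (edgeR adjusted p = 0.0142). The tryptase gene Tpsb2 fell by 0.96, the chymase gene Cma1 fell by 1.05, Hdc, of the enzyme that makes histamine, fell by 0.89 and the IgE receptor gene Fcer1a fell by 2.32. With the muscle score 1 of the 12 was called and without KO replicate 2, 2 were, and 9 were without KO replicate 3. Without KO replicate 4 the count was 1, and without WT replicate 2, 3 or 4 it was 2. Of 24 macrophage genes 2 fell and none rose, beside 5.42% of all genes called lower. They were Chil3 and Tyrobp, which fell by 1.78 and 0.37 with overlap between the groups. Their calls were lost in 11 and 5 of the alternatives. The macrophage count was 0 with the muscle score and 7 without WT replicate 1. Of 20 T, NK and B cell genes Cd79b, of the B cell receptor, fell, by 0.82, a call lost in 8 of the alternatives. Il33, of an alarmin of stromal cells, was the called member of 32 chemokine and cytokine genes. It had 39.7, 34.2, 42.7 and 36.6 CPM in KO libraries and 53.9, 127, 70.4 and 80.4 CPM in WT libraries, with no overlap, and fell by 1.11. Without WT replicate 1 the count for these genes was 6.

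MHC class II genes, which present antigen on dendritic cells, B cells and macrophages, went the other way. Of 14 tested with dendritic cell genes 6 rose and 1 fell, and 4 were also called higher in KO at day 14, when 1.06% of all genes were. Cd74, of the invariant chain, had 646, 1032, 831 and 703 CPM in KO libraries and 319.7, 411, 536 and 439 CPM in WT libraries, with no overlap, and rose by 0.91 ± 0.23. H2-Ab1 rose by 0.75 ± 0.20, H2-Eb1 by 0.62 ± 0.17, H2-Aa by 0.54 ± 0.16 and their activator gene Ciita by 0.68 ± 0.21. The gene that fell was Flt3, of a dendritic cell growth factor receptor, by 0.72. KO replicate 2 was the highest library of the list, at 0.275% of counts against 0.18 to 0.217% in the other KO libraries and 0.13 to 0.17% in WT libraries. Without it 1 gene of the list was called higher and 2 lower, and without WT replicate 1 or 2 the higher genes numbered 2, and without KO replicate 3 or WT replicate 4, 3. With the muscle score 1 gene was called higher and 0 lower, and Cd74, H2-Ab1, H2-Eb1, H2-Aa and Flt3 lost their calls.

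Keratinocyte genes passed the test in 6 of 14 tested but rest on KO replicate 2. Krt14, of a basal layer keratin, had 0.171, 376, 4.72 and 0.168 CPM in KO libraries and 0.144, 0.407, 0.0884 and 2.78 CPM in WT libraries. Without that library no keratinocyte gene was called higher and 1 was called lower, and without WT replicate 1, 2 or 3 none was called higher either. Perp, of a desmosome-associated protein of epithelia, was likewise high in that library, with 1.41, 48.1, 2.01 and 1.33 CPM in KO libraries and 0.722, 0.745, 1.11 and 0.856 CPM in WT libraries.

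**Figure D5:**
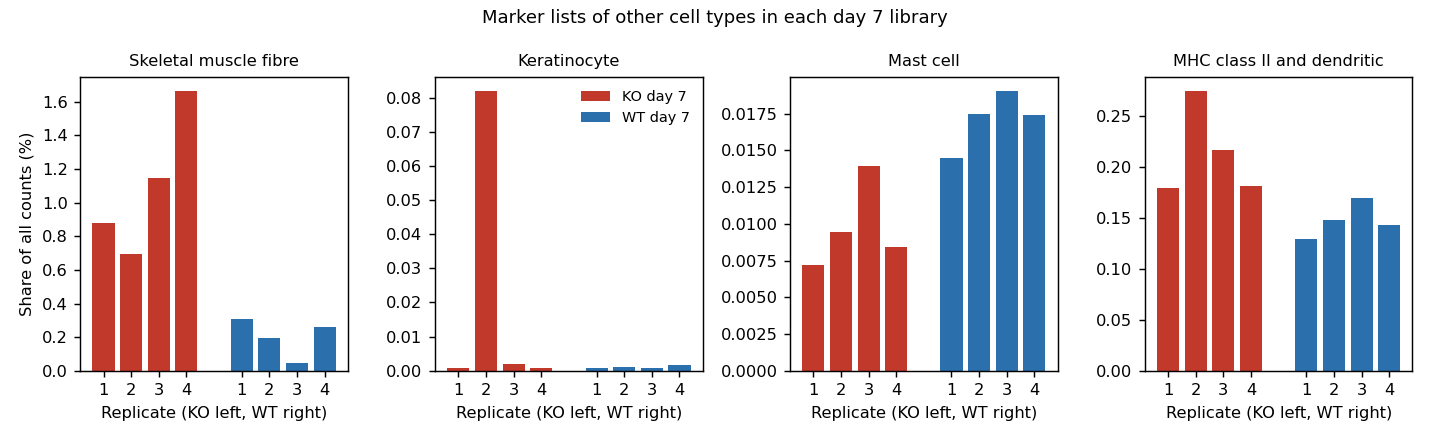
Share of all counts, in percent, held by marker genes of skeletal muscle fibres, keratinocytes, mast cells and MHC class II or dendritic cells in each day 7 library. Red bars are KO replicates 1 to 4, left of WT replicates 1 to 4 in blue, and each panel has its own axis from 0. Muscle shares are higher and mast cell shares lower in all 4 KO libraries, and the keratinocyte share stands out in KO replicate 2 alone.

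Immediate early genes, which answer to growth factors and to handling within minutes, gave 3 higher and 2 lower of 23. These counts are close to the 9.39% and 5.42% of all genes called higher and lower, and with the muscle score they were 3 and 0. Jund rose by 0.95 ± 0.15, Klf4 by 0.99 ± 0.19 and Klf2 by 0.96 ± 0.23, and Dusp5 and Btg2 fell by 0.96 and 0.89. Interferon-stimulated, neutrophil, adipocyte, erythroid, muscle precursor and mitochondrially encoded genes had no member called. Endothelial genes gave 3 of 20 higher, among them Flt1, of a VEGF receptor, by 0.56 ± 0.13, beside 9.39% of all genes, and none was called with the muscle score. Pericyte and smooth muscle genes gave 6 of 15 higher and 1 lower. Cspg4, of the pericyte proteoglycan NG2, had 178, 237, 180.2 and 226 CPM in KO libraries and 78.3, 90.9, 98.5 and 104 CPM in WT libraries, and rose by 1.14 ± 0.17 with no overlap. Notch3 rose by 1.01 ± 0.26, and with the muscle score 1 of the 15 was called, and without KO replicate 4 or WT replicate 2, 2 were. Acta2, of smooth muscle actin, named as the member that fell after its value was seen, fell by 0.58. Schwann cell and nerve genes gave 3 of 18 higher and 1 lower. S100b, of a calcium-binding protein of Schwann cells and chondrocytes, had 10.02, 11.998, 6.96 and 7.65 CPM in KO libraries and 4.199, 2.81, 2.92 and 2.89 CPM in WT libraries, and rose by 1.51 ± 0.23. Nefl, of the neurofilament light chain, fell by 1.53 at a trace level, 0.0745 to 0.264 CPM in KO libraries and 0.371 to 0.627 CPM in WT libraries. Its call was lost in 9 of the alternatives, among them the muscle score.

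Some of the largest rises were in genes that WT tendon held at a trace. Fabp2, of the intestinal fatty acid binding protein, had 8.13, 14.1, 6.41 and 8.79 CPM in KO libraries, against 0, 0.0339, 0.05303 and 0.01901 CPM in WT libraries. That is 1958 counts over the 4 KO libraries and 6 over the 4 WT libraries, a ratio of 355 after scaling for depth (95% counting interval 163 to 970, for counting error only). Hal, of histidine ammonia-lyase, had 60.1, 251, 235 and 67.2 CPM in KO libraries and 0.462, 0.508, 0.902 and 0.7605 CPM in WT libraries, with KO replicates 2 and 3 well above replicates 1 and 4, and rose by 7.87 ± 1.15. Susd5 and Meltf, of melanotransferrin, had 4.50 and 4.45 on the log2 scale, and the muscle stress gene Ankrd2 had 4.13. Among the smallest p-values were rises of Proser2, Ptprf, of a receptor phosphatase, and Eps8l2, of an actin regulator, by 1.88 ± 0.16, 1.30 ± 0.13 and 2.26 ± 0.24.

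Among the largest falls of genes at 5 CPM or more were those of Rpl3, Ang, Rpl29 and Naip5. Ang, of angiogenin, a ribonuclease, had 2.26, 2.88, 2.49 and 2.29 CPM in KO libraries, against 10.7, 12.3, 12.1 and 13.6 CPM in WT libraries, and fell by 2.30 with no overlap (edgeR adjusted p = 1.17e-05). Naip5, of the flagellin sensor of the inflammasome, had 4.03, 4.72, 4.103 and 5.72 CPM in KO libraries and 15.5, 18.3, 20.6 and 18.97 CPM in WT libraries, and fell by 1.98. Both belong to families of close relatives, so their counts are uncertain. Hmgn2, of a nucleosome-binding protein, fell by 1.74, Dynlt1b, of a dynein light chain, by 1.58 and Morf4l1, of a chromatin reader, by 0.89, each again called at day 14 (-1.41, -1.75 and -0.83). Apobec3, of an antiviral cytidine deaminase, fell by 1.14, Tbc1d4, of the AKT substrate that governs glucose transporter traffic, by 1.19, and Errfi1, of an inhibitor of the EGF receptor, by 1.30. Ppp1r3e, Steap1 and Angpt4 fell by 1.70, 1.45 and 1.34.

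At day 14, KO against WT gave 337 called genes, or 1.78% of those tested, with 201 (1.06%) higher and 136 (0.719%) lower. Of these, 229 had also been called at day 7, which is 67.7% of the day 14 calls and 8.14% of the day 7 calls, and 228 had the same direction, the exception being Six2, named because it is the exception. The days share no library. Of the genes called at day 7, 87.3% had the same sign at day 14, against 68.0% of all genes tested. Their median absolute log2 difference was 0.568 at day 7 and 0.217 at day 14. The interaction of genotype and day gave 0 called genes in edgeR, with 2039 at an unadjusted p below 0.05, and 191 called in DESeq2. A difference between the days is thus shown for no single gene in edgeR, and day 14 values are given only beside those of day 7. Among genes called at both days, Scx had 3.45 ± 0.30 at day 14, Bop1 2.40 ± 0.23, Mgp -1.71 ± 0.17, Timp2 0.56 ± 0.12 and Col5a1 0.73 ± 0.18. Col2a1 had 2.09 ± 0.85 (edgeR adjusted p = 0.221) and Myh2 0.44 ± 0.85 (edgeR adjusted p = 0.851) at day 14, both not called. Leaving out WT day 14 replicate 4 brought the day 14 count to 1672.

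A set of 53 genes, named from here after their values were seen, differed at least 4-fold in the same direction and was called on both days, with 43 higher and 10 lower. They lie on 17 chromosomes, but some fall in the same stretch. Pzp, Klra3, Pbp2, Lmntd1 and Gm15704 lie between bases 128483567 and 145746273 of chromosome 6. B230206L02Rik, Spata20, Gm9796 and Gm11537 lie between bases 94133485 and 96768269 of chromosome 11. The cause of this grouping was not tested. Of the 53, 51 did not overlap between groups at day 7, against 24.4% of all genes tested. Genes picked as called and at least 4-fold apart at day 7 seldom overlap, so this count is no separate result. Annotated pseudogenes made up 26 of the 53, or 49.1%, against 3.63% of genes tested. Klra3, of a Ly49 receptor of natural killer cells, had 1 count over the 4 KO libraries and 184 over the 4 WT libraries at day 7, a ratio of WT to KO of 169 (95% counting interval 29.9 to 6710). Psca, of a small surface protein, had 92 counts over the KO libraries and 2 over the WT libraries, a ratio of KO to WT of 50.1 (95% counting interval 13.5 to 420). Ifi208, of an interferon-inducible family, had 0.574, 5.19, 4.68 and 3.97 CPM in KO libraries and 0.0577, 0.0169, 0.0354 and 0.03802 CPM in WT libraries, with KO replicate 1 under the other KO libraries. Ctse, of cathepsin E, had 7.75, 1.37, 6.67 and 15.2 CPM in KO libraries and 0.8802, 1.07, 1.202 and 1.198 CPM in WT libraries. Rpl3-ps1 (chromosome X, 13202571 to 13203780, plus strand), a processed pseudogene of Rpl3, had 24.7, 23.5, 21.96 and 20.5 CPM in KO libraries, against 0.361, 0.254, 0.424 and 0.323 CPM in WT libraries. It rose by 6.04 ± 0.29 while its parent Rpl3 fell by 2.40. Of all 687 tested pseudogenes 65 were called at day 7, a share below the 14.8% of all genes tested. Among 75 pairs of a tested pseudogene and its namesake parent, 8 pseudogenes were called, likewise below that share. In 2 pairs both members were called in opposite directions. Pseudogene and parent share sequence, so how reads are split between them depends on the alignment and counting, and its part in these values was not tested.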

How the data were processed

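RNA of plantaris tendon was extracted with a micro column kit and DNase, per the labels' protocols. Reads were aligned to mm10 with STAR and checked with FastQC, per the submitters' processing notes, which also name edgeR. How reads were counted, on which annotation and with what strand setting is not given in the sources used here. The authors deposited a table of raw counts for 24885 genes in 20 libraries (32.3 to 63.5 M counts each), with the smallest row sum 21. A further deposited table by the authors holds log2 fold changes and p-values of edgeR comparisons.

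From the counts, 18918 genes passed edgeR's default expression filter. All 5 groups of 4 libraries were fitted together, with 1 mean per group, TMM scaling and edgeR's robust quasi-likelihood test (edgeR 4.0.16, limma 3.58.1, DESeq2 1.42.0, R 4.3.3). P-values were adjusted by Benjamini-Hochberg over all genes tested, and genes with an adjusted p below 0.05 are called. CPM values are scaled by TMM. Log2 CPM values, used for the principal components, the muscle score and the correlations between libraries, use a prior count of 2. Log2 differences between groups are the coefficients of the edgeR fit and do not use that prior. The fit was tested on simulated data with known changes.

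Genes were named by a rule: Igf1r, Scx and Bop1, the largest and most significant changes among called genes of at least 5 CPM without overlap, the most significant members of each gene list, and called genes within 500 kb of Scx. The 49 gene lists and the members were chosen with earlier results of these data known. Some list members are not reported here. Alternatives were other scalings, filters, tests and fits, a replicate block, a muscle score covariate and leaving out each library. Gene positions are from GENCODE vM21 (GRCm38) and promoter sequences from RefSeq (GRCm38.p6). The closest pair of same-group libraries differed by a chi-square of 26.9 per degree of freedom, so all were counted as separate. Counting intervals cover counting error only.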

Additional observations from a re-analysis of the deposited data

Results flagged for a closer look

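In 35 of 352 groups of 4 libraries the highest or lowest library stood apart from the other 3. Its gap to its nearest neighbour, as a share of the group's range, was above Dixon's 95% critical value. That value gives about 1 in 20 for independent, normally distributed values. The groups here are CPM values without logs, of genes chosen for the text, many of which move together. The 35 can therefore not be set against that rate. The gap is given in brackets as a share of the range. KO replicate 2 accounted for 9 of these and WT replicate 1 for 7, against 1 for KO replicate 4.

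Epithelial genes set KO replicate 2 apart: Krt14 in KO replicate 2 (0.988), Krt1 in KO replicate 2 (0.986), Krt10 in KO replicate 2 (0.984), Dsp in KO replicate 2 (0.988), Perp in KO replicate 2 (0.986) and the keratinocyte share of counts in KO replicate 2 (0.985). The same library stood highest in Scx (0.862), Pdgfa (0.848) and Pdgfrb (0.908). In WT, keratin genes stood apart in replicate 4, Krt14 (0.882) and Krt1 (0.970).

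Matrix and tendon genes that stood apart were Comp in KO replicate 1 (0.992), Hapln1 in KO replicate 3 (0.870), P3h4 in KO replicate 3 (0.869), Col2a1 in WT replicate 1 (0.956), Tnmd in WT replicate 1 (0.874), Col6a1 in WT replicate 4 (0.889), Has2 in WT replicate 2 (0.889) and Tppp3 in WT replicate 3 (0.878). Mast cell and macrophage genes were Fcer1a in KO replicate 3 (0.911), Tpsb2 in KO replicate 3 (0.939), Chil3 in KO replicate 1 (0.837), Tpsb2 in WT replicate 1 (0.882) and Cma1 in WT replicate 1 (0.848). The others were Rpl29 in KO replicate 4 (0.899), Tbc1d4 in KO replicate 3 (0.892), Pdgfb in KO replicate 1 (0.877), Ankrd2 in WT replicate 2 (0.951), Dynlt1b in WT replicate 1 (0.862), Eps8l2 in WT replicate 2 (0.835), Ncl in WT replicate 2 (0.859), Hk1 in WT replicate 1 (0.893), Srebf2 in WT replicate 1 (0.921), Klf2 in WT replicate 3 (0.873) and Des in WT replicate 3 (0.870).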

How the results depend on the processing

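Igf1r stayed on the same side of the threshold and Scx kept its call in every alternative, and the log2 difference ran from 0.035 to 0.092 for Igf1r and from 3.57 to 3.98 for Scx when single libraries were left out. At day 7 the number called kept within 1.5 times of 2802 in other scalings, filters, tests and fits, and without most single libraries. Leaving out single libraries gave 1440 to 2659 called, 1027 to 1761 higher and 413 to 898 lower. The exceptions in the number called were the muscle score, with 1001 (768 higher and 233 lower), and leaving out KO replicate 4 (1504) or WT replicate 2 (1440). The cause was not tested. At day 14, fitting only the 2 groups compared gave 86 called (52 higher and 34 lower), DESeq2 gave 759 (465 higher and 294 lower), and leaving out single libraries gave 152 to 1672 called, 90 to 855 higher and 62 to 817 lower. Under the interaction, leaving out single libraries gave 0 to 11 called genes and DESeq2 191. Of 202 named genes called at day 7, 74 kept their call in every alternative and 128 lost it in at least 1. With the muscle score 89 of the 202 kept their call, and signs turned there for 2 of them, Rragd (-0.11) and Pfkm (-0.12). Signs also turned there for named genes that were not called at day 7, mt-Nd2 (-0.13), mt-Nd1 (-0.27), Myod1 (-0.25), Actc1 (-1.24) and Cidea (-0.45). Leaving out WT replicate 2 ended 80 calls, the most of any library. The replicate number as a block gave 3141 called at day 7 and 345 at day 14. Libraries with the same number correlated at -0.026 to 0.102 in their deviations from group means, and 1 KO library correlated best with its own number. With 4 libraries per group such values can neither show nor exclude a pairing by number, and the main fit assumed none.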
